A study of Danio rerio with 3 samples.

Results

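Late-rising genes are defined here as genes whose transcript level was at least 2-fold higher in zebrafish (Danio rerio) embryos treated with wheat germ agglutinin (WGA) at 5 hours post fertilisation (hpf) than in WGA embryos at 4.3 hpf. The ratio was taken after adding 1 to both values in FPKM, the number of fragments per kilobase of a transcript relative to all mapped fragments of the library, and FPKM had to be at least 1 in the 5 hpf library. By this rule 104 of the 25386 genes in the table are members, out of 13128 genes at FPKM of at least 1 in that library (0.792%). Each member was then placed against untreated embryos at 4.3 hpf, the only control. By 2-fold or more, 38 were still below control and 4 were above it. The other 62 were level with control (within 2-fold). The members lowest in control could not be placed below it, because FPKM had to be at least 1 at 5 hpf.

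The study asked what blocking the nuclear pore does to zygotic genome activation. Its 3 libraries are poly(A) RNA of whole, dechorionated embryos of wild-type genotype. The control library came from untreated embryos at 4.3 hpf, the dome stage, and both WGA libraries from embryos given 0.65 ng WGA into the yolk at the 1-cell stage. The early WGA library was made at 4.3 hpf, the same age as control, and the late WGA library at 5 hpf, from embryos of dome-like stage. There is no untreated library at 5 hpf. Control therefore always means untreated embryos at 4.3 hpf, which are younger than the late WGA embryos. How far the members stood from untreated embryos of 5 hpf is not known. The labels mention neither a mock injection nor how many embryos were pooled. There was 1 library in each of the 3 groups, so the values have no replicate error and no test was made. In such bulk samples fewer cells of a type and less RNA per cell cannot be told apart.

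As background, WGA is a lectin that binds sugar-modified nucleoporins and slows traffic through nuclear pores. The early zebrafish embryo lives on maternal transcripts until its own genome switches on at the mid-blastula transition. By dome stage the blastula holds the enveloping layer, an outer sheet of flat epithelial cells rich in keratins, and the yolk syncytial layer, a multinucleate layer at the yolk surface. Nodal signals at the margin induce mesoderm and endoderm next to that layer. Of 24 markers of later cell types, mainly of blood, vessels and muscle, 3 reached FPKM 1 in any library. These were acta1b, for muscle actin, at 1.83 FPKM in control, 1.72 in the early and 1.94 in the late WGA library, lmo2 at 1.5, 0.3 and 0.56 FPKM and elavl3 at 2.24, 0.4 and 0.23 FPKM. The blood markers gata1a and hbae3 were listed at 0 in every library, and the vessel gene cdh5 lay between 0.4 and 0.77 FPKM.

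Most members were genes that stood far below control at 4.3 hpf and had covered part of the distance to that same 4.3 hpf control by 5 hpf. At 4.3 hpf 94 of 104 members (90.4%) were lower than control by 2-fold or more, where 8.97% of all 14263 genes measured in that pair were. None was 2-fold higher, against 7.21% of those genes. The median member was at a log2 ratio to control of -2.13 at 4.3 hpf (quartiles -2.74 and -1.56) and of -0.80 at 5 hpf (quartiles -1.29 and -0.22). Over all genes at FPKM of at least 1 in the 5 hpf library the same medians were 0.07 and 0.01. The rule selected on both WGA libraries, which these ratios share, so the counts and medians describe the members and support nothing further. The 38 members below control at 5 hpf make up 36.5%, against 5.8% of the 13128 genes, and the 4 above control 3.85%, against 5.72%. Over the 14158 genes that reached FPKM 1 in either of those libraries, 7.92% were 2-fold lower and 5.3% higher. Of the 4 members above control, 3 were listed at 0 in both 4.3 hpf libraries, so the rule itself placed them there. Placement depended on scaling: with all libraries scaled to ribosomal protein genes, 9 of 80 members were below control. With libraries scaled by the median ratio over expressed genes, 50 of 111 were below. The ratios to control at 4.3 and at 5 hpf share the control library.

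In FPKM as deposited, the members above 0 in control (101 genes) stood at a median of 11.9% of control at 4.3 hpf and 50.7% at 5 hpf. For the 94 that were 2-fold lower at 4.3 hpf, the share of the gap to control closed by 5 hpf had a median of 42.0%. It ran from 13.3% for the dynein light chain gene dynll1 to 151% for the kinase gene styk1. Of these genes 18 closed under 25% of the gap, 38 closed 25% to 50%, 20 closed 50% to 75%, 11 closed 75% to 100% and 7 reached or passed control. The other 1186 genes that were 2-fold lower than control at 4.3 hpf had closed a median of 5.69%, a difference that follows from the rule. The members are 7.34% of the 1280 genes 2-fold lower at that time.

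**Figure D1:**
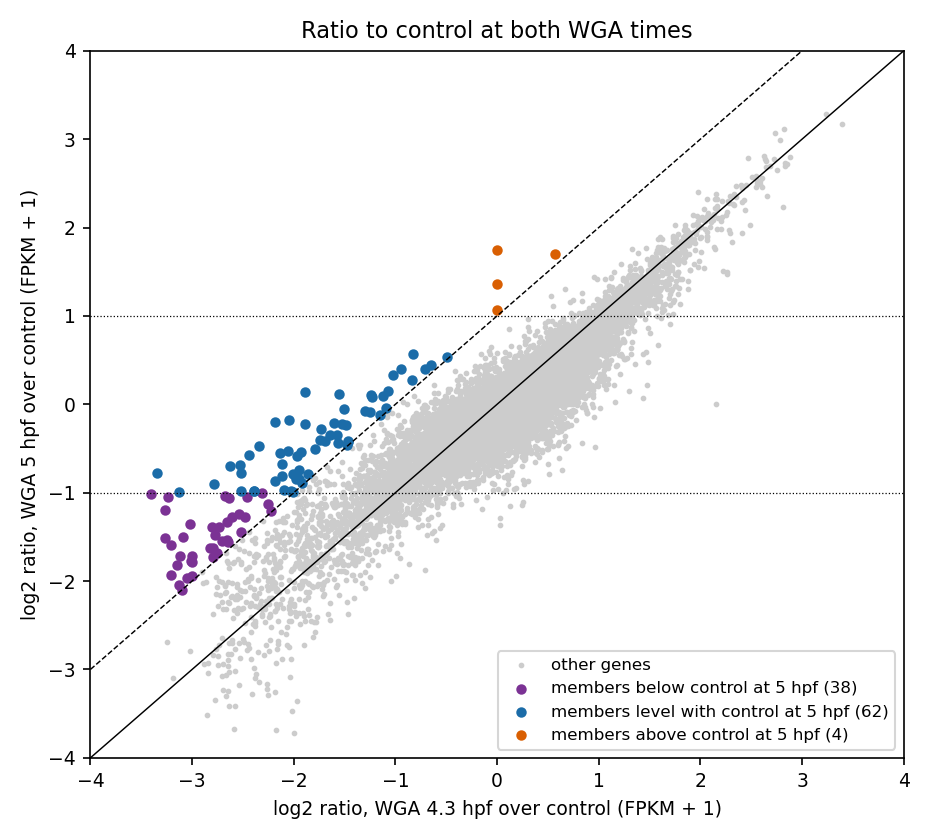
Each point is a gene that reached FPKM 1 in any library, with its log2 ratio of (FPKM + 1) to control in WGA embryos at 4.3 hpf (x axis) and at 5 hpf (y axis). The solid line marks equal ratios, the dashed line a 2-fold rise between the WGA libraries and the dotted lines 2-fold from control; the 38 members below, 62 level with and 4 above control are coloured.

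The genes at the threshold show how gradual its edge is. The member nearest to it, dynll1, was at 388.95 FPKM in control, 44.46 in the early and 90.15 in the late WGA library, a log2 ratio of 1.00 between the WGA libraries. The glycosyltransferase gene gcnt7 and the Nodal ligand gene ndr2 followed at 1.01 and 1.02. Just outside were the sulfotransferase gene sult6b1 (9.69 and 20.31 FPKM in the WGA libraries), the FGF ligand gene fgf17 (2.72 and 6.38 FPKM) and the cytochrome P450 gene cyp2x6 (0.48 and 1.91 FPKM). In FPKM as deposited each of them rose by more than 2-fold, and by more than dynll1. The 1 added to each value kept them outside.

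Keratins, the intermediate filament proteins of the outer epithelium, were nearly all members. Of 10 keratin genes that reached FPKM 1 in any library, 9 were members, against 104 of 14349 genes in all (0.725%). Of the 10, 9 were 2-fold lower than control at 4.3 hpf. Among all genes lower by that much at 4.3 hpf, 7.34% are members. The gene with the highest ratio of all was krt5 (NCBI Gene 797351), at 24.89 FPKM in control, 1.54 in the early and 14.08 in the late WGA library. It was 5.94-fold higher at the later time and level with control by the 2-fold band. The next keratin, krt92 (550522), was at 24.7, 1.73 and 11.41 FPKM in the same order of libraries and still just below control.

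The abundant keratin pair krt8 and krt18, which form the filaments of simple epithelia, differed in how near they came to control. The type II gene krt8 was at 159.17 FPKM in control, 22.21 in the early and 84.54 in the late WGA library, or 53.1% of control. The type I gene krt18, now named krt18a.1, was at 200.38, 27.86 and 75.92 FPKM, or 37.9% of control. At 4.3 hpf they stood at 14.0% and 13.9% of control, so they parted between the WGA libraries.

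The enveloping layer keratin krt4 was at 113.15 FPKM in control, 13.09 in the early and 43.65 in the late WGA library. The type I gene krt97 was at 31.95, 3.81 and 10.86 FPKM. Both were below control by more than 2-fold. The low-level type I genes were instead near or over control: cyt1 was at 3.69, 0.27 and 3.02 FPKM. The gene cyt1l was at 1.36 FPKM in control, listed at 0 in the early and at 1.54 in the late WGA library. The third of them, krt17, was at 0.53, 0.09 and 1.21 FPKM. These 3 genes were level with control, cyt1l and krt17 with a higher FPKM than control. A member must gain at least 1 FPKM, which at such low control levels leaves little room to stay below. For krt17, at 0.53 FPKM in control, the floor of FPKM 1 alone required a value over control. The contrast with krt4 and krt97 is thus set at least in part by the rule. The keratin that was no member, krt96, was at 1.63, 0.13 and 0.76 FPKM, a log2 ratio of 0.64 between the WGA libraries. A further member listed under a clone name, zgc:110712, carries the current symbol krt99 in the NCBI table and was at 3.6, 0.24 and 4.08 FPKM. Keratin genes resemble each other in sequence, so reads may have been shared among them and single values are uncertain.

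Other genes of the outer epithelium were members as well. In all, 14 of 43 measured genes of the enveloping layer and epithelium list were members, against 0.725% of 14349 genes. Of the 43, 25 were 2-fold lower than control at 4.3 hpf and 17 at 5 hpf, against 1280 and 1122 of all genes. Among all genes 2-fold lower at 4.3 hpf, 7.34% are members. The count of 14 was 11 with ribosomal protein scaling and 7 with 5 in place of 1 added to each value. In this list 0 were 2-fold lower at 5 than at 4.3 hpf (0.356% of 13478 genes were). The list's median log2 ratio between the WGA libraries was 0.33, against -0.04 over all genes; scaled to ribosomal protein genes these were 0.12 and -0.37. This list and the others were written with earlier results of these data known. The annexin gene anxa1a, whose product binds membranes in the presence of calcium, was at 34.66 FPKM in control, 5.18 in the early and 21.21 in the late WGA library. The tight junction gene cldne was at 69.77, 10.26 and 23.47 FPKM. The Ly6-domain gene lye was at 112.29, 13.13 and 33.54 FPKM.

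At 5 hpf anxa1a had reached 61.2% of control, whereas cldne and lye stood at 33.6% and 29.9%. The calpain protease gene capn9 was at 8.92 FPKM in control, 0.6 in the early and 3.75 in the late WGA library. The splicing regulator gene of epithelial cells, esrp1, was at 7.88, 1.08 and 3.53 FPKM. The transcription factor genes of the layer described next were not among the members. The gene klf17, for a Krüppel-like factor, was at 109.47 FPKM in control, 32.77 in the early and 23.62 in the late WGA library.

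The Grainyhead-like gene grhl3 was at 129.57, 27.9 and 26.3 FPKM. The zinc-finger factor gene gata3 was at 60.24, 10.65 and 12.62 FPKM. These 3 were below control by 2-fold or more at both WGA times, and klf17 and grhl3 had lower values at 5 hpf than at 4.3 hpf. With 1 library per group the difference between regulators and keratins was not tested.

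**Figure D2:**
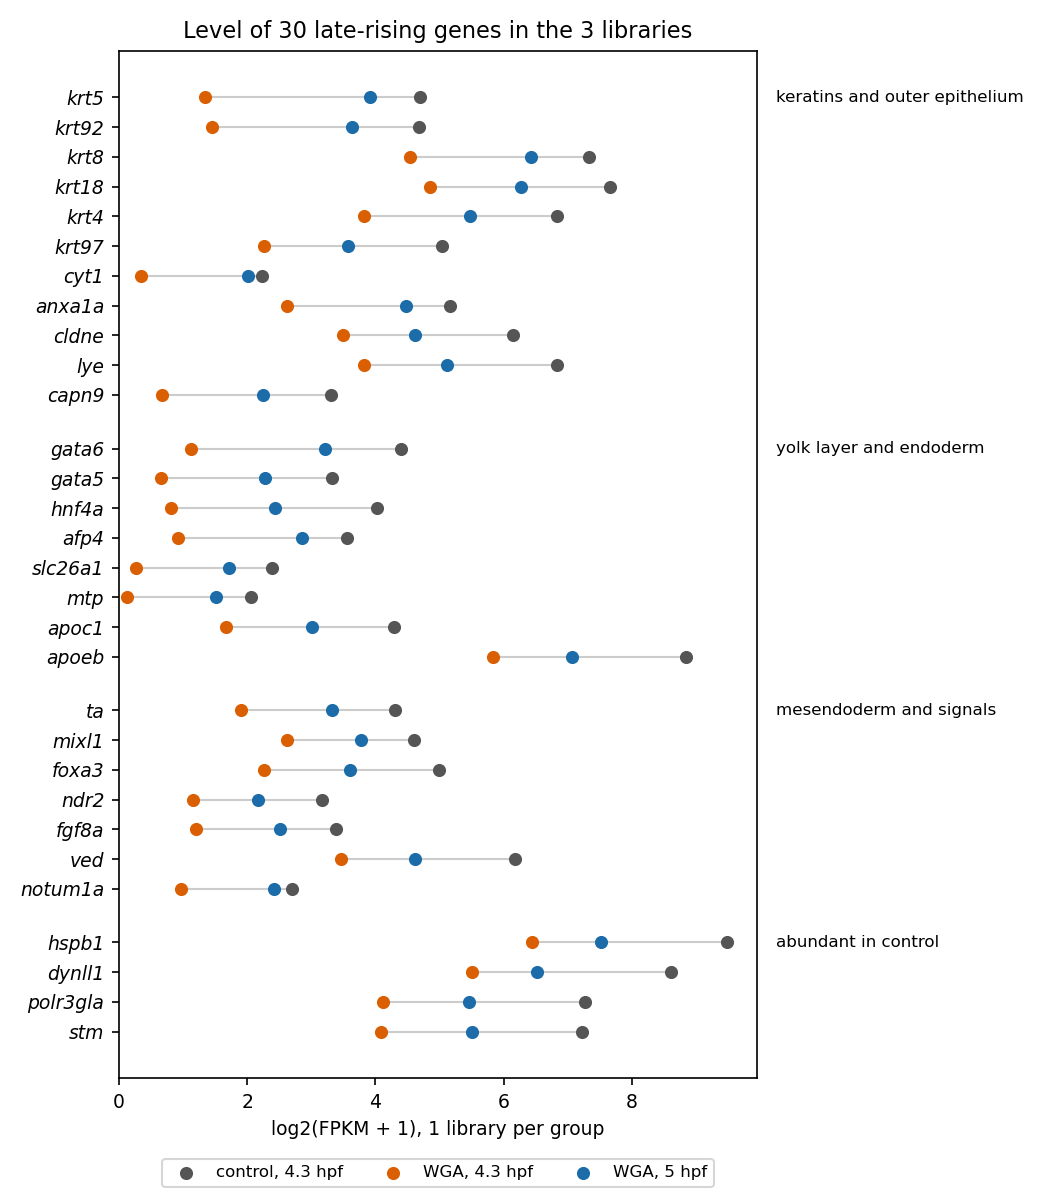
Level of 30 members in the 3 libraries, as log2(FPKM + 1), grouped by role (keratins and outer epithelium, yolk layer and endoderm, mesendoderm and signals, genes abundant in control); each point is 1 library. For each of these genes the WGA 4.3 hpf library is lowest, the WGA 5 hpf library lies between and the control is highest, as for krt5 at 1.54, 14.08 and 24.89 FPKM. This order reflects the choice of genes. None of the 17 members with a higher FPKM at 5 hpf than in control, such as cyt1l and krt17, is shown.

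Genes of the yolk syncytial layer and of lipoprotein assembly gave 8 members among 17 measured genes of their list. Of the 17, 14 were 2-fold lower than control at 4.3 hpf and 10 at 5 hpf. Among all genes 2-fold lower at 4.3 hpf, 7.34% are members. The count of 8 was 7 with ribosomal protein scaling and 2 with 5 in place of 1 added to each value. All 17 had a higher value at 5 than at 4.3 hpf (15 of 17 with ribosomal protein scaling). Among all 14349 measured genes 0.725% were members, 1280 were 2-fold lower than control at 4.3 hpf and 1122 at 5 hpf. A higher value at 5 than at 4.3 hpf was found for 6048 of them (1423 with ribosomal protein scaling). The list's median log2 ratio between the WGA libraries was 0.81, and 0.68 with that scaling. Over all genes these medians were -0.04 and -0.37. The endodermal zinc-finger factor gene gata6 (58076) was at 20.14 FPKM in control, 1.19 in the early and 8.23 in the late WGA library. Its relative gata5, which acts in endoderm and heart formation, was at 9.03, 0.57 and 3.87 FPKM. They stood at 40.9% and 42.9% of control at 5 hpf.

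The nuclear receptor gene hnf4a, a regulator of lipid metabolism in gut and liver, was at 15.23 FPKM in control, 0.76 in the early and 4.38 in the late WGA library. Its level at 5 hpf was 28.8% of control. The orphan receptor gene nr0b2a, in mammals a repressor of bile acid synthesis and here in none of the lists, was at 4.44, 0.41 and 2.25 FPKM. The homeobox genes of the layer, mxtx1 and mxtx2, were no members, at 2.84 and 5.73 FPKM and at 31.22 and 34.69 FPKM in the WGA libraries at 4.3 and 5 hpf. In FPKM as deposited mxtx1 rose by just over 2-fold, and the 1 added to each value kept it outside.

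Genes for lipid export were members at very different levels. The abundant gene apoeb, for apolipoprotein E, was at 457.2 FPKM in control, 55.99 in the early and 132.69 in the late WGA library. Its neighbour apoc1 was at 18.44, 2.18 and 7.03 FPKM. The gene mtp, now called mttp, whose product loads lipid onto apolipoprotein B, was at 3.16, 0.09 and 1.87 FPKM. At 5 hpf apoeb was at 29.0%, apoc1 at 38.1% and mtp at 59.2% of control. Among these members the order of the shares ran against the order of the levels. Part of this order is set by the rule, since a gene as low as mtp must gain a large part of control to be a member. The non-member apoa4b.2 was also low in control, at 2.94, 0.41 and 0.67 FPKM, and reached 22.8% of control. Of 5 measured apolipoprotein genes 2 were members, against 0.725% of all genes. The median log2 ratio of this family between the WGA libraries was 0.24. The antifreeze-like gene afp4 was at 10.71, 0.9 and 6.22 FPKM, and the sulfate transporter gene slc26a1 at 4.25, 0.21 and 2.28 FPKM.

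Mesendoderm genes were represented by 5 members among 34 measured genes of their list, against 0.725% of all genes. Of the 34, 21 were 2-fold lower than control at 4.3 hpf and 15 at 5 hpf, against 1280 and 1122 of 14349 genes. Over all genes 7.34% of those 2-fold lower at 4.3 hpf are members. The count of 5 fell to 3 with ribosomal protein scaling and to 0 with 5 in place of 1 added to each value. The list's median log2 ratio between the WGA libraries was 0.27, and -0.04 with ribosomal protein scaling. Over all genes these medians were -0.04 and -0.37. Beside gata5 the members were ta, foxa3, mixl1 and ndr2. The T-box gene ta (30399), the brachyury gene of the notochord and tail, was at 18.67 FPKM in control, 2.75 in the early and 8.95 in the late WGA library. The homeobox gene mixl1, a direct Nodal target, was at 23.15, 5.14 and 12.64 FPKM. The Nodal ligand gene ndr2 was at 7.95, 1.23 and 3.51 FPKM.

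The forkhead gene foxa3, expressed in the organizer and endoderm, was at 30.79 FPKM in control, 3.79 in the early and 11.16 in the late WGA library. It was below control, while ta, mixl1 and ndr2 were level, ta and ndr2 by a small margin (log2 ratios of -0.98 and -0.99). The endoderm determinant sox32 just missed the rule, at 3.51, 0.41 and 1.76 FPKM (log2 ratio between the WGA libraries 0.97). The organizer gene gsc was further from it, at 19.65, 3.87 and 5.28 FPKM.

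Signalling and patterning lists held from 0 to 2 members each, against the 0.725% of all genes that are members. The ligand gene fgf8a was at 9.43 FPKM in control, 1.29 in the early and 4.72 in the late WGA library. The gene notum1a, whose enzyme inactivates Wnt proteins, was at 5.48, 0.95 and 4.34 FPKM. These were the 2 members among 25 measured genes of the Wnt, FGF and retinoid signalling list (8%). The ventral homeobox repressor gene ved was at 70.97, 10.04 and 23.62 FPKM, the 1 member among 23 BMP and ventral ectoderm genes (4.35%).

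The related repressor genes vox and vent, which act with ved, were no members. In the WGA libraries they were at 17.89 and 23.72 FPKM and at 5.09 and 8.44 FPKM. Of the 23 measured BMP and ventral ectoderm genes 11 had a higher value at 5 than at 4.3 hpf. Their median log2 ratio between the WGA libraries was -0.01. The dorsal organizer list had 1 member, foxa3, of 21 measured genes. The neuroectoderm list had 0 members of 22, a count near the 0.725% over all genes. Of the 22, 13 were 2-fold lower than control at 4.3 hpf and 13 at 5 hpf, against 1280 and 1122 of 14349 genes. The list's median log2 ratio between the WGA libraries was -0.12. At 5 hpf 8 of the 22 had a higher value than at 4.3 hpf, and 1 was 2-fold lower. Over all genes these counts were 6048 and 48. The SoxB1 gene sox3, among the 8 with a higher value, was at 57.32 FPKM in control, 11.93 in the early and 14.9 in the late WGA library.

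The list of first-wave zygotic genes had 5 members of 40 measured (krt4, foxa3, polr3gla, ved and cldne), or 12.5%. Of the 40, 38 were 2-fold lower than control at 4.3 hpf and 35 at 5 hpf, against 1280 and 1122 of 14349 genes. Over all genes 7.34% of those lower at 4.3 hpf are members. The DNA damage and cell death list had 2 of 25 (8%), the heat shock list 1 of 29 (3.45%) and the adhesion, matrix and cell movement list 1 of 37 (2.70%). There were 0 members among 31 oocyte, egg and germ plasm genes, 27 cell cycle regulators, 11 interferon and innate immune genes and 3 measured genes of later cell types. In lists of these sizes the share over all genes would give under 1 member. In all 34 members belong to at least 1 list and 5 to more than 1.

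**Figure D3:**
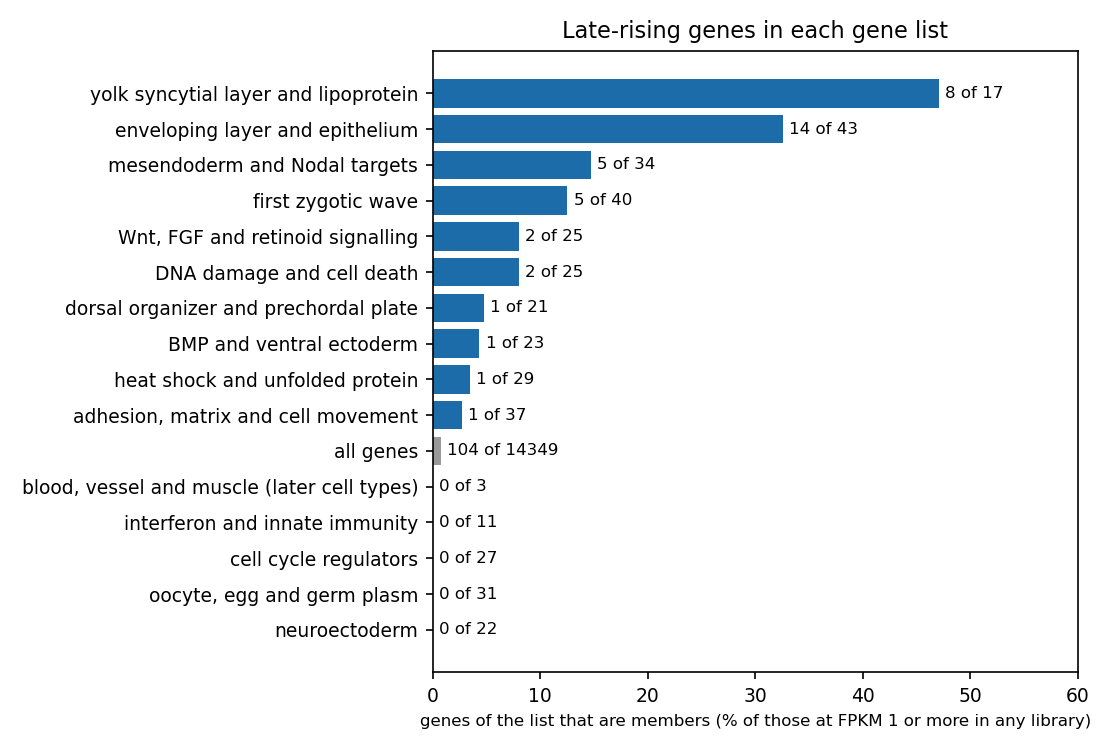
Percent of the measured genes of each list that are members, with the counts beside the bars; the grey bar is the share over all 14349 genes that reached FPKM 1 in any library. The yolk syncytial layer list (8 of 17) and the enveloping layer list (14 of 43) have the largest shares, and 5 lists have 0 members.

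The remaining 70 members are in none of the lists, and the groups below were formed after their values were seen. Several encode proteins of the actin cytoskeleton and of cell shape. The actin-bundling plastin gene lcp1 was at 5.63 FPKM in control, 0.61 in the early and 4.87 in the late WGA library. The thymosin gene tmsb1, whose product binds actin monomers, was at 4, 0.1 and 3.34 FPKM. The LIM-domain gene znf185, grouped with zinc-finger genes by its name alone, was at 12.28, 1.62 and 8.57 FPKM. These 3 came within 2-fold of control.

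The transgelin gene tagln2, the 1 member from the adhesion and movement list, was at 9.17 FPKM in control, 0.82 in the early and 3.21 in the late WGA library. It was still below control. The cell adhesion gene alcamb was at 14.45, 1.7 and 6.83 FPKM, just level with control.

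Genes for transport and metabolism formed another group. The amino acid transporter heavy chain gene slc3a2b was at 19.01 FPKM in control, 2.49 in the early and 10.71 in the late WGA library. The light chain gene slc7a8a, whose mammalian product pairs with that heavy chain, was at 26.85, 2.27 and 8.87 FPKM. The heavy chain thus reached 56.3% of control and the light chain 33.0%. They and slc26a1 were the 3 members among 204 measured solute carrier genes (1.47%), against 0.725% of all genes. The median log2 ratio between the WGA libraries was -0.06 in this family and -0.04 over all genes.

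The mitochondrial adenylate kinase gene ak3 was at 47.66 FPKM in control, 4.06 in the early and 16.02 in the late WGA library. The purine nucleoside phosphorylase gene pnp4a was at 6.9, 0.82 and 3.49 FPKM. The sphingolipid desaturase gene degs1 was at 3.53, 0.15 and 1.52 FPKM. At 5 hpf these 3 stood between 33.6% and 50.6% of control. Retinoid genes were the binding protein gene crabp2b at 24.67, 2.63 and 7.29 FPKM and the desaturase gene cyp27c1 at 2.27, 0.18 and 1.43 FPKM.

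Both dual oxidase genes, which make hydrogen peroxide at the cell surface, were members. The gene duox was at 2.66 FPKM in control, 0.32 in the early and 1.74 in the late WGA library, and duox2 at 3.9, 0.3 and 1.65 FPKM. Of 12 measured cathepsin genes 2 were members, against 0.725% of all genes. In this family 6 of the 12 had a higher value at 5 than at 4.3 hpf. Its median log2 ratio between the WGA libraries was 0.06. The cathepsin L-like gene ctsll had the second highest ratio of all (21.9, 1.17 and 10.34 FPKM), and the cathepsin H gene ctsh was at 1.97, 0.54 and 2.93 FPKM. The DNase gene dnase1l4.1 was at 19.15, 2.71 and 12.59 FPKM.

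Of the members tied to stress and cell death, phlda3 and sesn3 were level with control. The gene phlda3, which in mammals restrains Akt, was at 10.27 FPKM in control, 4.18 in the early and 11.07 in the late WGA library. The sestrin gene sesn3 was at 10.16, 2.22 and 6.85 FPKM. The first was thus at 108% and the second at 67.4% of control. The TNF receptor family gene relt was lower, at 10.48, 1.45 and 3.96 FPKM.

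Further members with a gene symbol have varied roles, and most were level with control. The sphingolipid glycosyltransferase gene b3gnt5a was at 2.64 FPKM in control, 0.28 in the early and 2.52 in the late WGA library. The receptor gene crhr2, for corticotropin-releasing hormone, was at 7.46, 1.16 and 4.66 FPKM. The G protein subunit gene gna15.1 was at 14.58, 1.97 and 6.9 FPKM.

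The potassium channel gene kcnk1a was at 3.91 FPKM in control, 0.7 in the early and 3.22 in the late WGA library. The gene lsm10, for a protein of the particle that processes histone transcripts, was at 7.77, 2.69 and 7.27 FPKM. The oligosaccharyltransferase subunit gene ost4 was at 4.81, 0.8 and 3.36 FPKM. All 6 of these genes were level with control; b3gnt5a stood at 95.5% and lsm10 at 93.6% of it in FPKM.

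Level with control were also the steroid dehydrogenase family gene hsd17b14 (8.18, 1.74 and 5.92 FPKM), rabgap1l2 (6.95, 1.61 and 5.88 FPKM), ponzr5 (2.93, 0.34 and 3.26 FPKM) and rgcc (5.84, 0.89 and 2.96 FPKM). Below control were the tripartite-motif gene ftr83 (21.45, 3.08 and 9.88 FPKM), the leucine-rich repeat gene lrrc15 (12.49, 0.95 and 3.06 FPKM), fam13a (7.26, 0.73 and 2.78 FPKM) and fb06f03, now hmgn6, a nucleosome-binding protein gene (35.64, 4.27 and 10.83 FPKM). Beside fb06f03, clone or LOC names are carried by 29 members, of which 8 were below, 18 level with and 3 above control. Their median was 6.22 FPKM in control, 0.8 in the early and 3.4 in the late WGA library. Among the abundant ones zgc:193505 was at 23.86, 1.84 and 11.54 FPKM and just level with control, whereas si:ch211-125o16.4 was at 60.23, 8.76 and 19.8 FPKM and below it.

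Several members abundant in control were among the furthest below it at 5 hpf. Highest of all in control was hspb1, a small heat shock protein gene, at 714.45 FPKM in control, 85.41 in the early and 182.09 in the late WGA library. Also far below was polr3gla, which encodes a subunit of RNA polymerase III, at 153.46, 16.42 and 42.74 FPKM. With dynll1 and apoeb they are among the 6 members with a gene symbol furthest below control, dynll1 being 4.28-fold and apoeb 3.43-fold lower. Members with clone names and lower control levels stood further below than apoeb. Of these, zgc:173714 (15.49 FPKM in control) was 3.83-fold and si:ch211-191i18.4 (35.64 FPKM in control) 3.82-fold lower. The starmaker gene stm, which encodes an otolith matrix protein, was at 147.61, 16.06 and 44.25 FPKM.

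In groups of members by control level, the median share of control reached at 5 hpf was lower the higher that level. The median share at 4.3 hpf followed no such order. The 10 members at 100 FPKM or more in control had a median of 29.4% of control at 5 hpf (range 23.2% to 53.1%), and 9 of them were below control and 1, krt8, was level. The 11 members between 25 and 100 FPKM had a median of 33.3%. The 28 members between 10 and 25 FPKM had a median of 47.2%, the 22 between 5 and 10 FPKM 57.2% and the 30 above 0 and below 5 FPKM 82.1%. Single members spread widely. Those between 10 and 25 FPKM ran from 21.3%, the lowest share of all members above 0 in control, to 108%. The medians at 4.3 hpf in these 5 groups lay between 8.91% (lowest control level) and 14.8% (5 to 10 FPKM), with 11.6% at the highest control level.

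Part of this order is set by the rule, since with 1 added to each value a gene can enter only if it gained at least 1 FPKM, which is a large part of control where control is low. All 30 members above 0 and below 5 FPKM in control were level. For those at or under 2.93 FPKM in control, the value of ponzr5, the floor of FPKM 1 left no place below control. Of the 62 level members 9 were at or under 50% of control in FPKM as deposited, among them gene LOC108180310 at 3.24, 0.04 and 1.14 FPKM, or 35.2% of control.

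**Figure D4:**
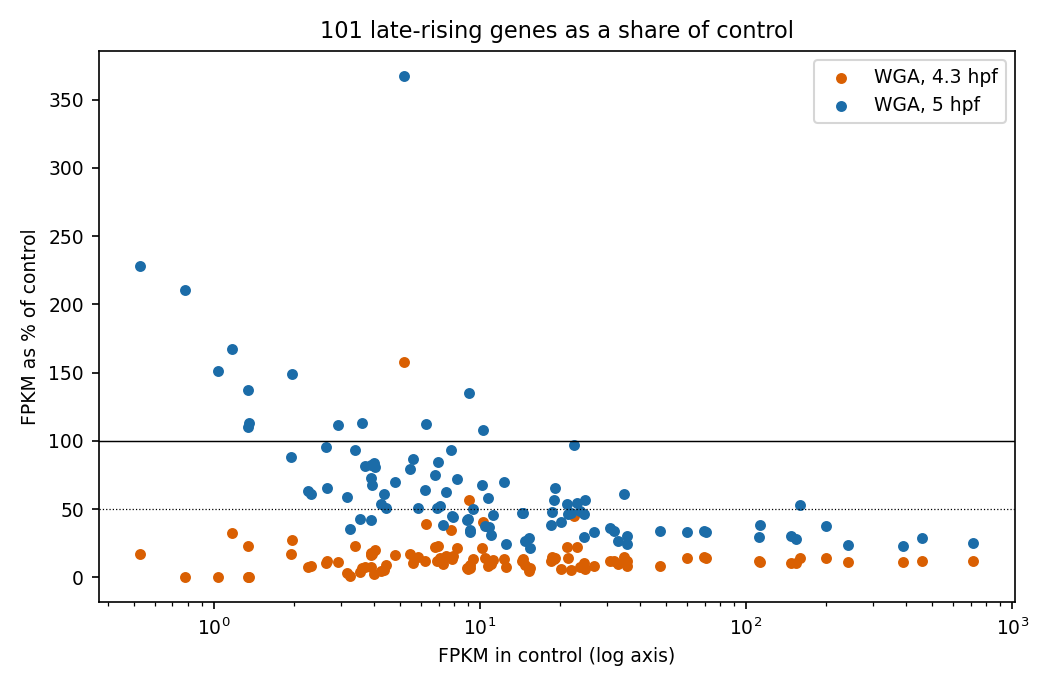
FPKM in each WGA library as a percent of control for the 101 members above 0 in control, against the control level on a log axis; each member has 1 point per WGA library, and the lines mark 100% and 50%. At 5 hpf the median goes from 82.1% of control in members under 5 FPKM to 29.4% in members at 100 FPKM or more.

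In 17 members the FPKM at 5 hpf was higher than in control, and 4 of them reached 2-fold after adding 1. Of these, LOC110438953, inpp5a (gene 101884388) and si:ch1073-366l7.1 were listed at 0 FPKM in both 4.3 hpf libraries and at 2.35, 1.56 and 1.09 FPKM in the late WGA library. For them no fold is given. With 0 in both 4.3 hpf libraries, their ratio to control is the ratio of the rule, so their place above control was fixed in advance. The fourth, LOC110439257, was at 5.18 FPKM in control, 8.17 in the early and 19.03 in the late WGA library, 3.24-fold higher than control. It was the 1 member at FPKM 5 or more at 5 hpf that was above control by 2-fold. None of the 4 gene numbers is in the NCBI gene table, which holds 95 of the 104 members.

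The other members that ended above control stayed within the 2-fold band after adding 1. The collagen chaperone gene serpinh1a was at 1.17 FPKM in control, 0.38 in the early and 1.96 in the late WGA library. The kinase gene styk1 was at 1.04 FPKM in control, listed at 0 in the early and at 1.57 in the late WGA library. The membrane protein gene tmem154 was at 6.26, 2.46 and 7.05 FPKM.

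Gene order was not used by the rule. The NCBI table of assembly GRCz12tu places 94 members among the protein-coding genes of its chromosomes, and they lie on 25 chromosomes. In the order of protein-coding genes, krt5, krt8 and krt18 follow each other directly, as do krt92, cyt1l, cyt1 and krt17, the pair apoeb and apoc1, and the pair duox2 and duox. With stm and si:ch211-133n4.4, which have 2 genes between them, 13 members have another member within 5 genes. The same count was not made for other sets of genes, so whether 13 is many was not tested. Most neighbours were in the same place against control, though 59.6% of all members were level with control. Both apoeb and apoc1 were below it, as were stm and si:ch211-133n4.4, and both oxidase genes were level. In the keratin runs krt18 and krt92 were below control and the others level. Reads may have been shared among these keratin genes.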

How the data were processed

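The authors deposited 1 table of FPKM values per gene, rounded to 2 decimals. Build GRCz11 and the tools Bowtie2 2.2.5, RSEM 1.2.8 and Trimmomatic 0.36 are named, per the submitters' processing notes, with no roles. No annotation release is given in the sources used here. Columns were matched to libraries by name. FPKM carries no read numbers, so depth and counting error are unknown. At FPKM of 0.15 to 1.5, 202 of 4304 genes (4.69%) had the same value in both WGA libraries, against 1.72% and 1.73% in each WGA library with control. Library sums were 430459 (control), 401114 (WGA, 4.3 hpf) and 411178 FPKM (WGA, 5 hpf).

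Ratios are log2 of (FPKM + 1), which understates changes of low genes. Calculations used pandas 2.3.3 and were tested on simulated data. Genes of near-identical sequence may share reads. The members, 15 gene lists (564 entries, 548 matched, 24 of those by current symbol or synonym in the NCBI table, which was used for names and gene order) and comparisons were chosen with earlier results of these data known. Genes named were the 12 members with the highest ratio at FPKM of at least 5, the 6 furthest above and below control, up to 6 per list and 3 on each side of the threshold. Members in no list, other members of families, and non-members set beside them were named after their values were seen. Families were formed by symbol. Sequences were not used here, and some genes that the rule names are not reported here. Alternatives varied the pseudocount, floor, scaling and thresholds.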

Additional observations from a re-analysis of the deposited data

How the results depend on the processing

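There is 1 library per group, so no replicate could be left out. No paired analysis was possible because the groups hold 1 library each. The number of members, and with it the counts below, level with and above control, depended on the pseudocount, the floor and the scaling. A pseudocount of 0.1 gave 207 members (91 below, 104 level, 12 above), 0.5 gave 142, of which 67 below, and 5 gave 18 (8, 10 and 0), with 11 listed genes. A floor of FPKM 5 gave 49 members (26 below, 22 level, 1 above) with 21 listed genes. TPM scaling, which makes the pseudocount smaller beside the values, gave 191 (71, 110 and 10). Median-of-ratios scaling gave 111 members (50 below, 57 level, 4 above), 104 of them shared. No floor gave the same 104 by necessity, since a 2-fold rise after adding 1 already requires at least FPKM 1. With libraries scaled to 77 ribosomal protein genes, the all-gene median was -0.37 between the WGA libraries and 0.31 for the late WGA library over control (-0.05 and -0.02 as deposited). This scaling gave 80 members, of which 76 are shared, with 9 below control. As deposited, the 86 measured ribosomal protein genes had a median log2 ratio of -0.67 in the early WGA library over control. Between the WGA libraries their median was 0.34. A threshold of 1.5-fold gave 304 members and 3-fold gave 22. A band of 1.5-fold around control gave 60 below and 40 level, and 3-fold gave 15 below and 2 above. Without a pseudocount in the placement, an alternative chosen after seeing the data, 47 were below, 51 level and 6 above. The median log2 ratio of members to control was negative at both WGA times in all 8 alternatives of pseudocount, floor and scaling, at 5 hpf from -1.01 (floor of 5) to -0.28 (ribosomal protein scaling). Of these alternatives, that without a floor could not differ from the main setting. Of the 44 genes named by rule, 27 fell under 2-fold at pseudocount 5 and 12 under ribosomal protein scaling, among them hspb1, apoeb, mixl1, ndr2, ved and cldne. None changed sign.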
